A study of Mus musculus with 8 samples.

Results

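Reported direct targets of the microRNA miR-210 were followed in mouse skin fibroblasts at normal and at low oxygen. The members are 10 genes named in the literature as targets, namely Gpd1l, E2f3, Efna3, Casp8ap2, Ptpn1, Fgfrl1, Acvr1b, Cox10, Mnt and Rad52. They were found by name among the 17091 features of the deposited table, and all 10 were present. RNA was sequenced from immortalised fibroblasts in 4 groups of 2 libraries each, 8 libraries in all. WT cells came from C57BL/6 mice, and the cells named KO came from C57BL/6 mice carrying the allele written mir210lox/lox. Cells of either genotype spent 24 hours in normoxia, at 21% oxygen, or in hypoxia, at 1%. A lox site is a sequence at which the Cre recombinase cuts, and the labels name no Cre. KO therefore stands only for that group. The labels give neither the number of lines or clones nor whether replicate libraries came from different cultures. A p value therefore measures the spread among these 8 libraries alone, and that spread may be technical.

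A microRNA is a short RNA that guides the Argonaute proteins to messenger RNAs, mostly by pairing of its seed, the bases near its 5′ end, with sites in the 3′ UTR. A bound messenger is translated less and is often degraded faster, so a target is usually lower where the microRNA is high. HIF, the factor that drives the response to low oxygen, induces the gene of miR-210, and its best known targets serve mitochondrial respiration, the cell cycle, receptor signalling and DNA repair. The design allows the response of such genes to low oxygen to be compared between WT cells and the cells named KO. Whether the latter lack miR-210 cannot be checked from the labels or the values.

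The mature strand and the sites that could pair with its seed are shown first because such sites are the usual mark of a direct target, although members were chosen by name and not by site. The strand of miR-210-3p (RefSeq, GRCm38.p6, chr7:141221407-141221428, minus strand) is 22 bases long, and the capitals mark its seed, bases 2 to 8.
miR-210-3p: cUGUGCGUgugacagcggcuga
The motif searched was ACGCACA, the reverse complement of the seed, on the sense strand of 1 representative GENCODE M21 transcript per gene (GRCm38). A match to bases 2 to 7 only, CGCACA, was counted apart as a 6-base match, and 1 that is part of a longer match was not counted again. Of the members, 4 held the longer motif in the 3′ UTR, and the capitals below mark it. Each base number is that of the first base of CGCACA, so a marked ACGCACA begins 1 base before it.
Gpd1l, base 182 of a 3′ UTR of 3065, chr9:114902218-114902239, minus strand: aactacagacacacACGCACAt
Gpd1l, base 1601, chr9:114900799-114900820, minus strand: tcgacctcagtgaaACGCACAc
Gpd1l, base 1893, chr9:114900507-114900528, minus strand: gtcccacacctaaaACGCACAg
Efna3, base 766 of 1538, chr3:89314665-89314686, minus strand: acaggacctatgcaACGCACAg
Fgfrl1, base 81 of 551, chr5:108706411-108706432, plus strand: agccagattcacacACGCACAt
Acvr1b, base 1574 of 2822, chr15:101212421-101212442, plus strand: ttctccagactcaaACGCACAt
The E2f3 3′ UTR held a 6-base match only, and the Ptpn1 transcript held its match in the coding part. Both are printed because they are the nearest to a seed site in those genes.
E2f3, base 165 of 3328, chr13:29909732-29909753, minus strand: ttttttttttctaagCGCACAg
Ptpn1, base 943 of the 1299 coding bases, chr2:167975372-167975393, plus strand: ccccggccacccaaACGCACAc

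Gpd1l stood out among the members by number of sites. Of 10805 tested genes with a protein-coding transcript, 363 (3.36%) held the 7-base motif in the 3′ UTR, 24 (0.222%) held it at least 2 times and 3 (0.0278%) at least 3 times, which were Camk2a, Gpd1l and Zdhhc21. Among 1576 genes whose 3′ UTR is within 25% of the length of that of Gpd1l, 2 (0.127%) held at least 3, Gpd1l being 1 of them. For a 3′ UTR as short as that of Fgfrl1 the share with a motif was 1.02%, and for one as long as that of Acvr1b it was 5.58%. The 3′ UTRs of Casp8ap2 (620 bases), Cox10 (1495), Mnt (2405) and Rad52 (290) in these transcripts held neither motif. A match is only a run of letters, and its absence from 1 mouse transcript says nothing of other isoforms, other kinds of site or the human gene.

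**Figure D1:**
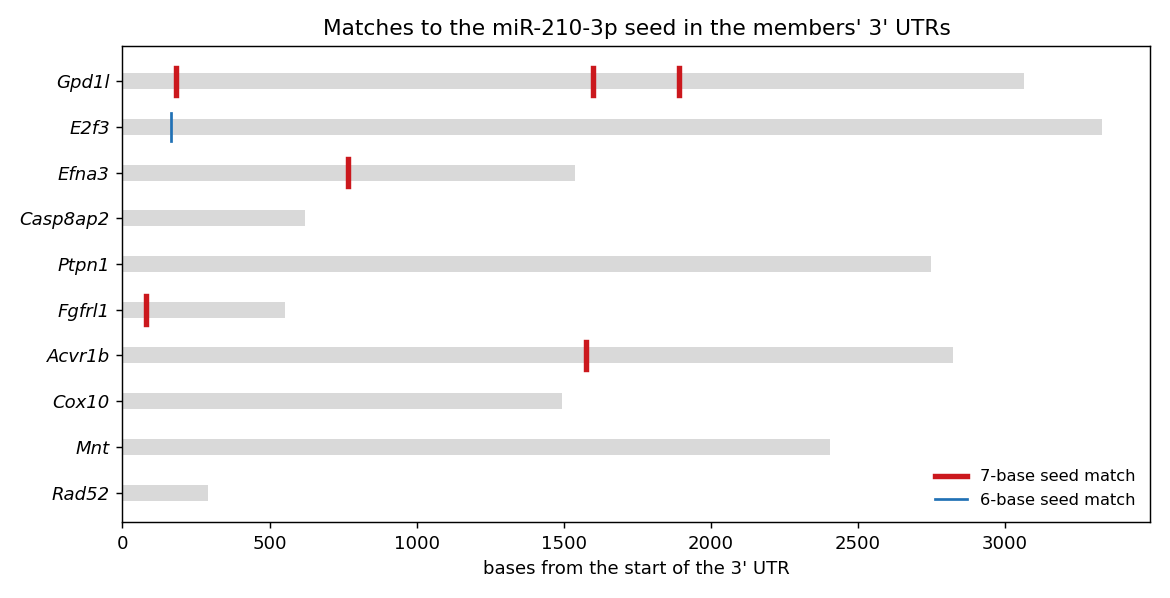
Positions of seed matches in the 3′ UTRs of the 10 members. The horizontal axis gives bases from the start of the 3′ UTR of the representative transcript, each grey bar is 1 3′ UTR, a red tick is a 7-base match and a thin blue tick a 6-base match. Gpd1l carries 3 red ticks, Efna3, Fgfrl1 and Acvr1b carry 1 each, E2f3 carries the blue tick, and the other 5 bars carry none.

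Values are normalised read counts as the authors deposited them, whole numbers with a floor of 1. Spacing of the low values put the depth at 6.26 to 11.76 M assigned reads per library. WT hypoxia replicate 2 and KO normoxia replicate 1 stood apart from the other libraries on the leading components, and both had lower values for long transcripts. The slopes of their log2 values, each taken relative to the gene's mean over the 8 libraries, on log2 transcript length were -0.08 and -0.12, against -0.07 in WT hypoxia replicate 1 and -0.02 to 0.11 in the other 5 libraries. Results that turn on these 2 libraries are therefore also given without them. All 7 hypoxia genes checked (Slc16a3, Egln3, Car9, Ankrd37, Pdk1, Bnip3 and Ak4) passed the test in both genotypes and rose by 2.02 to 4.69 on the log2 scale in WT and by 2.56 to 5.27 in KO. Mir210 itself was at the floor of 1 in all 8 libraries, so its value checks neither the genotype nor its induction. All 11 fibroblast markers were measured (summed values of 61232 to 92274 per library), and the summed markers of macrophages (62 to 98), endothelium (13 to 48), keratinocytes (15 to 58) and Schwann cells and melanocytes (17 to 33) were low in every library. The epithelial sum was 15 to 28 in the WT libraries and 32 to 58 in the KO libraries, without overlap. Cdh1 (named after its values were seen) was at 8 to 14 in WT and 21 to 38 in KO. The other markers of that list were at no more than 8 in any library. The share of all genes with such a separation of KO from WT was not counted. Within the fibroblast list, Vim and S100a4 were among the highest. Some markers were lower in KO, while Pdgfra and Thy1 had higher means in KO than in WT at both oxygen levels. The values of both overlapped between the genotypes at each level. Dcn, which encodes the matrix proteoglycan decorin and was named after its values were seen, had means of 51 in normoxia and 72.5 in hypoxia in WT and of 15.5 and 20.5 in KO (adjusted p = 1.0 and 0.641 with limma). Lum and Fap were at no more than 7 in any KO library. In the WT libraries numbered 1 they were also low (Lum 4 and 6, Fap 7 and 9, normoxia then hypoxia). Only the WT libraries numbered 2 were higher (Lum 27 and 36, Fap 38 and 40). The part of these differences in the comparisons of KO with WT was not tested.

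No member passed the test in any comparison, although 1 member, Gpd1l, was lower in every hypoxia library than in every normoxia library. Of the 10 members, 9 had values of at least 10 in at least 2 libraries and were tested, and Efna3 did not reach that level. Tests were made with limma on log2(value + 1), adjusted over all 12107 tested genes, with a threshold of 0.05. Of the 9 members 0 passed for hypoxia against normoxia in WT (background 0.107% of tested genes), in KO (0.0578%) or over both genotypes (0.363%). Likewise 0 of 9 passed for KO against WT in normoxia (background 0.0%), KO against WT in hypoxia (0.0%) or the difference of the hypoxia responses (0.0%). At an unadjusted p under 0.05 the counts were 1 of 9 in WT (Gpd1l, background 6.33%), 0 in KO (3.2%), 1 over both genotypes (Gpd1l, 5.29%), 0 for KO against WT in normoxia (3.0%), 1 in hypoxia (Mnt, 7.52%) and 0 for the difference (3.14%). The precision is limited, since on simulated data for the WT comparison (11970 genes) this test recovered none of 50 genes set to differ 1.5-fold, 15 of 50 set to differ 2-fold and 44 of 50 set to differ 4-fold. In the real WT comparison only 13 genes passed, fewer than in the simulation, which makes the adjusted threshold stricter. The simulated spread was independent between libraries, with no length trend. These rates may therefore be too high for the data. Amounts of RNA per cell and shares of cells cannot be told apart in such bulk libraries.

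**Figure D2:**
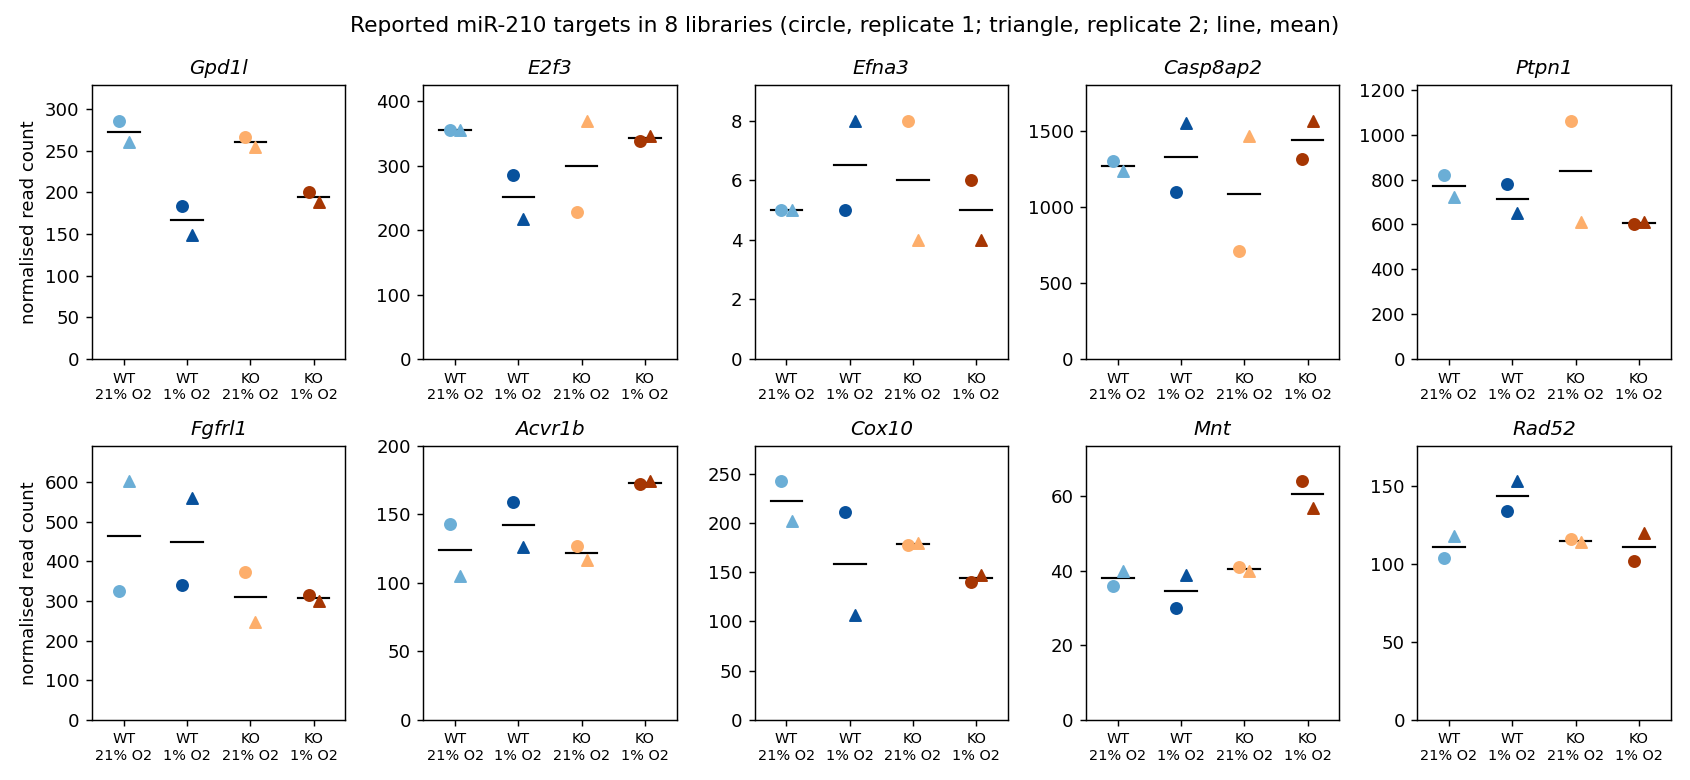
Normalised read counts of the 10 members in the 8 libraries, 1 panel a gene, each vertical axis starting at 0. Circles are replicate 1, triangles replicate 2 and lines the group means. Gpd1l runs from 149 to 201 in the 4 hypoxia libraries and from 254 to 286 in the 4 normoxia libraries, while Efna3 lies between 4 and 8 throughout.

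The members that act in metabolism are Gpd1l and Cox10. Gpd1l encodes a relative of cytosolic glycerol-3-phosphate dehydrogenase and has been linked to the turnover of HIF. Its values were 286 and 260 in WT normoxia, 184 and 149 in WT hypoxia, 266 and 254 in KO normoxia and 201 and 188 in KO hypoxia. Every hypoxia value lay below every normoxia value, and within hypoxia both WT values lay below both KO values. Means were 273 ± 18.4 and 166.5 ± 24.7 in WT (SD, n = 2 each), a relative difference of -39.0%, and 260 ± 8.49 and 194.5 ± 9.19 in KO, a relative difference of -25.2%. As log2 differences from limma these were -0.72 ± 0.23 in WT (SE, unadjusted p = 0.00971, adjusted p = 0.767) and -0.42 ± 0.23 in KO (adjusted p = 0.916).

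Over both genotypes the Gpd1l difference was -0.57 ± 0.16 (95% interval -0.92 to -0.21, adjusted p = 0.522 with limma), and 1.4% of tested genes lay lower. A separation of all 4 hypoxia from all 4 normoxia values in this direction was shared with 200 of 12107 tested genes (1.65%). Of the 9 tested members, Gpd1l was the 1 that had it in either direction (background 3.71%). Adjusted over all genes the difference did not pass.

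The genotypes were compared for Gpd1l by the difference of their hypoxia responses, KO minus WT. It was 0.30 ± 0.32 (95% interval -0.41 to 1.01, adjusted p = 0.865 with limma), so the smaller response in KO was within the error. Without WT hypoxia replicate 2, the lowest value, it was 0.15, and without WT hypoxia replicate 1 it was 0.45. KO against WT was -0.07 ± 0.23 in normoxia and 0.23 ± 0.23 in hypoxia (0.08 without WT hypoxia replicate 2). The separation by oxygen was seen in both genotypes, and a difference between genotypes was not detectable with these libraries.

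Cox10 encodes the farnesyltransferase of heme A synthesis, needed to assemble cytochrome c oxidase. It was at 242 and 202 in WT normoxia, 211 and 106 in WT hypoxia, 177 and 179 in KO normoxia and 140 and 147 in KO hypoxia. Both KO hypoxia values lay below both KO normoxia values, and in WT the groups overlapped, with 1 low value in WT hypoxia replicate 2. The log2 differences were -0.56 ± 0.31 in WT, -0.31 ± 0.31 in KO and -0.43 ± 0.22 over both (95% interval -0.93 to 0.06, adjusted p = 0.922 with limma). Without WT hypoxia replicate 2 the WT difference was -0.07 and the difference over both genotypes -0.19, so that library set most of both. KO against WT was -0.31 ± 0.31 in normoxia, where the groups did not overlap, and -0.06 ± 0.31 in hypoxia, which became -0.55 without WT hypoxia replicate 2.

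E2f3, Mnt and Casp8ap2 act in the cell cycle and its transcription. E2f3 encodes an activating E2F factor, which drives genes of S phase entry. Its values were 356 and 355 in WT normoxia, 285 and 218 in WT hypoxia, 229 and 370 in KO normoxia and 339 and 347 in KO hypoxia. The WT hypoxia values lay below those of the other groups except for KO normoxia replicate 1. Hypoxia against normoxia was -0.51 ± 0.27 in WT and 0.24 ± 0.27 in KO, and KO against WT in hypoxia was 0.46 ± 0.27 (adjusted p = 0.655 with limma). The difference of the responses was 0.75 ± 0.38 (95% interval -0.10 to 1.59, unadjusted p = 0.0782, adjusted p = 0.857 with limma), and 91.9% of tested genes lay below it.

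The E2f3 values followed the libraries that stood apart. Its lowest values were those of WT hypoxia replicate 2 (218) and KO normoxia replicate 1 (229), whose slopes with transcript length were -0.08 and -0.12. In WT hypoxia replicate 1, with a slope of -0.07, E2f3 was at 285. Without both libraries the difference of the responses was 0.21, and the KO response was -0.11 in place of 0.24. With each library's trend with transcript length removed it was 0.46. The part of the length trend in the E2f3 values was not tested further.

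Mnt encodes a partner of Max that represses genes activated by Myc. It was low, at 36 and 40 in WT normoxia, 30 and 39 in WT hypoxia, 41 and 40 in KO normoxia and 64 and 57 in KO hypoxia, on an estimated 28 to 77 reads. Both KO hypoxia values lay above the values of the other 6 libraries. The share of all tested genes with that pattern was not counted, and KO and WT in hypoxia alone did not overlap for 50.8% of them. KO against WT in hypoxia was 0.80 ± 0.31 (95% interval 0.11 to 1.5, unadjusted p = 0.0281, adjusted p = 0.641 with limma), with 95.7% of tested genes below it, and 0.09 ± 0.31 in normoxia. Hypoxia against normoxia was -0.15 ± 0.31 in WT and 0.57 ± 0.31 in KO, and their difference was 0.71 ± 0.44 (95% interval -0.28 to 1.70, adjusted p = 0.857). This difference was 0.91 without the 2 libraries that stood apart and 0.53 to 0.89 with single libraries left out. The Mnt 3′ UTR searched here held no seed match.

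Casp8ap2 encodes FLASH, a protein of apoptosis signalling and of histone messenger RNA processing. It was at 1306 and 1236 in WT normoxia, 1102 and 1557 in WT hypoxia, 708 and 1469 in KO normoxia and 1314 and 1569 in KO hypoxia. Hypoxia and normoxia overlapped within each genotype, as did KO and WT at each oxygen level, and the low value was that of KO normoxia replicate 1. The hypoxia differences were 0.04 ± 0.33 in WT and 0.49 ± 0.33 in KO, and the latter was -0.03 without the 2 libraries that stood apart.

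The 4 members of receptor signalling are Efna3, Fgfrl1, Acvr1b and Ptpn1. Efna3 encodes ephrin-A3, a membrane-bound ligand of Eph receptors, and is among the longest studied targets of miR-210. It was at 5 and 5 in WT normoxia, 5 and 8 in WT hypoxia, 8 and 4 in KO normoxia and 6 and 4 in KO hypoxia, which stand for an estimated 4 to 8 reads. No difference between groups can be read at that depth, and the gene was not tested. The Eph receptor Epha2, the highest of its listed relatives, was at 562 to 1240 in these cells, and Epha7 was at the floor in all 8 libraries.

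Fgfrl1 encodes a receptor that binds fibroblast growth factors and lacks the tyrosine kinase domain. Its values were 326 and 602 in WT normoxia, 340 and 559 in WT hypoxia, 372 and 247 in KO normoxia and 314 and 299 in KO hypoxia. Within WT the values differed more between replicate 1 and replicate 2 than between oxygen levels. The hypoxia differences were -0.02 ± 0.35 in WT and 0.02 ± 0.35 in KO, and 0.0 over both genotypes, with a 95% interval of -0.55 to 0.54. KO against WT was -0.55 ± 0.35 in normoxia and -0.51 ± 0.35 in hypoxia (adjusted p = 1.0 and 0.678 with limma). These were -0.10 without WT normoxia replicate 2 and -0.15 without WT hypoxia replicate 2, so they rested on the WT libraries numbered 2.

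Acvr1b encodes a type I receptor of activin. Its values were 143 and 105 in WT normoxia, 159 and 126 in WT hypoxia, 127 and 117 in KO normoxia and 172 and 174 in KO hypoxia. In KO the hypoxia values lay above the normoxia values, and in WT the groups overlapped. The hypoxia difference was 0.21 ± 0.26 in WT, 0.50 ± 0.26 in KO and 0.35 ± 0.18 over both genotypes (95% interval -0.05 to 0.76, adjusted p = 0.922 with limma). KO against WT in hypoxia was 0.29 ± 0.26 and the difference of the responses 0.30, both close to the values of Gpd1l (0.23 and 0.30), while the hypoxia differences within each genotype had the opposite sign to those of Gpd1l.

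Ptpn1 encodes the tyrosine phosphatase that switches off the insulin receptor. It was at 822 and 721 in WT normoxia, 779 and 652 in WT hypoxia, 1063 and 612 in KO normoxia and 602 and 611 in KO hypoxia. The high value was again that of KO normoxia replicate 1. The hypoxia difference was -0.11 ± 0.27 in WT and -0.41 ± 0.27 in KO, and without the 2 libraries that stood apart these were 0.02 and -0.01.

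Rad52, which anneals DNA strands in homologous recombination, had its highest values in WT hypoxia. It was at 104 and 118 in WT normoxia, 134 and 153 in WT hypoxia, 116 and 114 in KO normoxia and 102 and 120 in KO hypoxia. Both WT hypoxia values lay above all the others, a pattern whose share among all tested genes was not counted. The hypoxia difference was 0.37 ± 0.24 in WT and -0.06 ± 0.24 in KO, and KO against WT in hypoxia was -0.37 ± 0.24 (95% interval -0.91 to 0.17, adjusted p = 0.672 with limma). The sign of that comparison is opposite to that of Gpd1l.

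**Figure D3:**
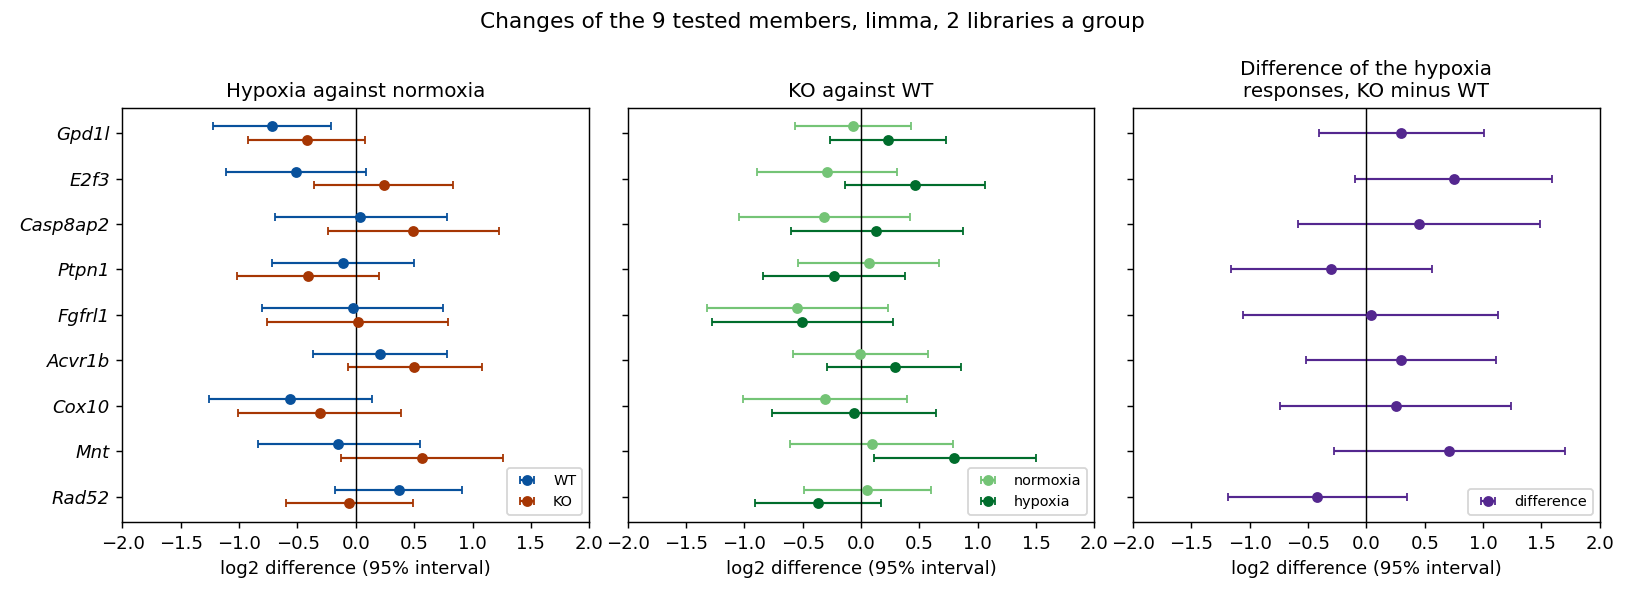
Log2 differences of the 9 tested members with 95% intervals from limma, for hypoxia against normoxia in each genotype, for the genotypes in normoxia and in hypoxia, and for the difference of the hypoxia responses. Points are estimates from 2 libraries a group. The Gpd1l interval in WT (-1.22 to -0.21) and the Mnt interval for KO against WT in hypoxia (0.11 to 1.5) leave out 0 before adjustment, and all other intervals drawn span it.

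Among the 9 tested members the directions were mixed. In WT 6 were lower and 3 higher in hypoxia (median -0.11), where 52.1% of tested genes were lower (median -0.02), and over both genotypes 5 were lower (49.6% of tested genes). In KO 4 were lower and 5 higher (median 0.02), where 48.8% were lower (median 0.01). KO against WT was negative for 6 in normoxia (52.3% of tested genes) and positive for 5 in hypoxia (median 0.13, against 49.0% of tested genes and -0.01), and the difference of the responses was positive for 7 of 9 (median 0.30, against 51.1% of tested genes and 0.01). Without the 2 libraries that stood apart the last median was 0.18. Values of the 2 groups did not overlap for 3 of 9 members in WT (Gpd1l and E2f3 lower, Rad52 higher), where 38.8% of tested genes did not overlap, and for 5 of 9 in KO (background 32.2%). For KO against WT in hypoxia this held for 7 of 9 (Gpd1l, E2f3, Acvr1b and Mnt higher, Ptpn1, Fgfrl1 and Rad52 lower), with a background of 50.8%, and in normoxia for Cox10 alone (background 21.0%). With 2 values a group such separation is frequent, and these counts are given as a description.

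Genes with a seed match were then described as a group, since 3 of the 9 tested members belong to it. In WT the 363 genes with the 7-base motif had a median hypoxia difference of -0.12, against -0.03 for the 10442 without it. In KO it was 0.08 against 0.0, and the difference of the responses had a median of 0.24 against 0.02. Such genes have longer 3′ UTRs, and all medians moved with that length. Among genes with 3′ UTRs of 4000 bases or more the difference of the responses was 0.41 with the motif (106 genes) and 0.36 without (695 genes). From 2000 to under 4000 bases it was 0.30 with it (127 genes) and 0.22 without (2056 genes), and from 1000 to under 2000 bases 0.09 (79 genes) and 0.07 (2557 genes). With each library's trend with transcript length removed, these medians were 0.30 and 0.23, 0.23 and 0.13, and 0.10 and 0.04, in the same order. Whether the motif goes with a difference beyond that of length was not tested. Without the 2 libraries that stood apart the medians were 0.09 and 0.05, 0.10 and 0.04, and 0.0 and 0.01. The KO response itself turned direction with length in that fit, since in the longest class its median went from 0.18 to -0.08 with the motif and from 0.19 to -0.10 without, and over all genes with the motif from 0.08 to -0.02. For the 3 genes with at least 3 motifs, the WT hypoxia differences were -0.72 for Gpd1l, -0.72 for Camk2a and -0.09 for Zdhhc21, and the KO differences were -0.42, -0.36 and 0.48. Of these genes only Gpd1l had an unadjusted p under 0.05 in WT with limma (6.33% of all tested genes). KO against WT in hypoxia was 0.23 for Gpd1l, -0.62 for Camk2a and 0.41 for Zdhhc21.

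**Figure D4:**
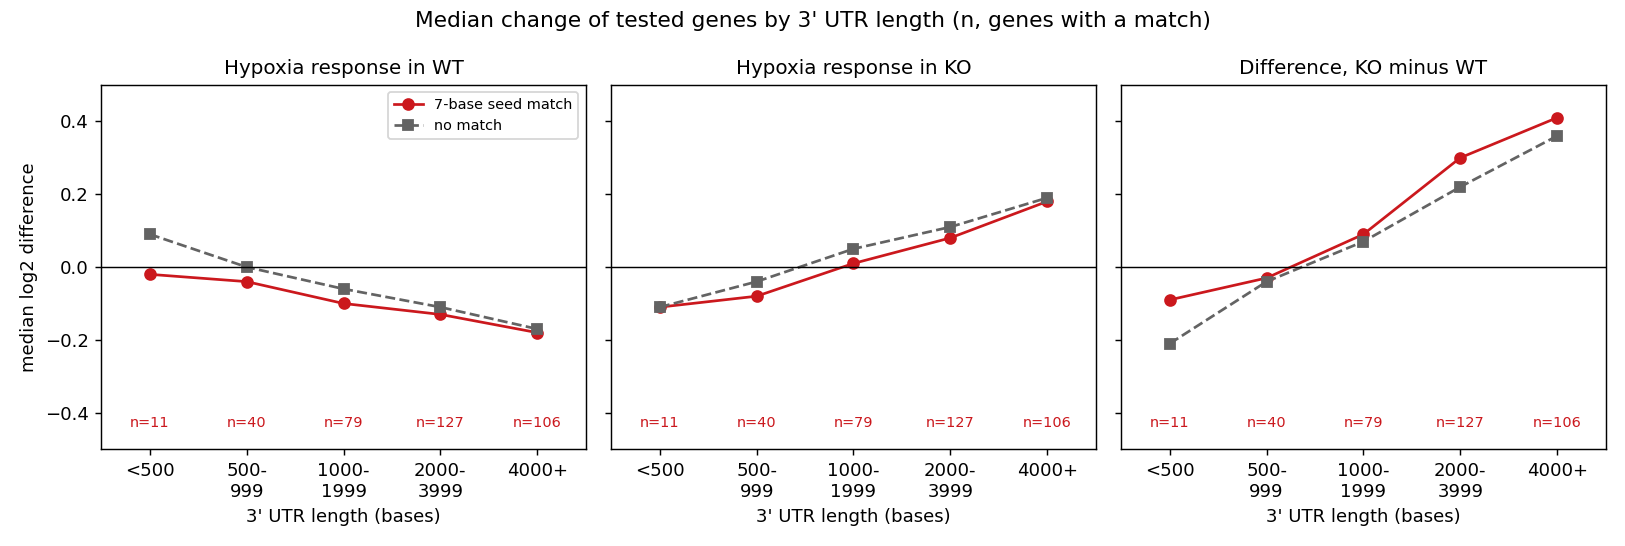
Median log2 difference of tested genes in 5 classes of 3′ UTR length, for the hypoxia response in WT, in KO and for their difference. Red circles are genes with the 7-base seed motif, with their number printed below, and grey squares are genes without it. With all 8 libraries both lines fall with length in WT and rise with it in KO, where the rise is not seen without the 2 libraries that stood apart, and in the longest class the difference is 0.41 with the motif and 0.36 without.

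Other genes named in the literature as miR-210 targets were counted next. Of 50 listed, 45 were in the table and 42 were tested, and 8 of the 42 (19.0%) held the 7-base motif in the 3′ UTR. Bnip3, a mitophagy receptor and itself a hypoxia gene, rose in WT, in KO and over both genotypes (3.16 ± 0.18, adjusted p = 2.9e-05 with limma), and the other 41 did not pass in any comparison. KO against WT in hypoxia was positive for 28 of 42 (median 0.14), against 49.0% of all tested genes (median -0.01). The difference of the responses was positive for 32 of 42 (median 0.28, or 0.04 without the 2 libraries that stood apart), against 51.1% of tested genes (median 0.01), and the relatives of members described below, listed apart from the targets, had a median of 0.26. Iscu, the iron-sulfur scaffold that is the best known mitochondrial target, was at 105 ± 21.2 and 93.5 ± 4.95 in WT and at 95 ± 18.4 and 80 ± 12.7 in KO (SD, n = 2, normoxia then hypoxia). Its difference over both genotypes was -0.20 ± 0.20, and KO against WT in hypoxia was -0.23 ± 0.28. For Ndufa4, a subunit of the respiratory chain, KO against WT in hypoxia was -0.53 ± 0.31, and for Sdhd, a subunit of succinate dehydrogenase, -0.21 ± 0.26.

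At the ends of that list, KO against WT in hypoxia was -1.58 ± 0.92 for Abcb9 and -0.77 ± 0.58 for Hoxa3, and 0.76 ± 0.72 for Stmn1 and 0.83 ± 0.45 for Ncam1. Abcb9, Hoxa3 and Stmn1 were low, at no more than 21 in any library. Over both genotypes hypoxia against normoxia was -0.53 ± 0.51 for Stmn1, -0.30 ± 0.32 for Foxn3 and 0.67 ± 0.35 for Cpeb2. None of these passed the test.

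Relatives and partners of the members were looked at to see whether a member moved apart from its family. Of 65 listed, 63 were in the table and 57 were tested, and 0 passed in any of the 6 comparisons, although an unadjusted p under 0.05 was found for 5 of 57 in WT (6.33% of all tested genes), 2 in KO (3.2%), 1 for KO against WT in normoxia (3.0%), 5 in hypoxia (7.52%), 2 for the difference of the responses (3.14%) and 3 over both genotypes (5.29%). Their difference of the responses was positive for 43 of 57 (median 0.26, or 0.0 without the 2 libraries that stood apart), and KO against WT in hypoxia for 39 of 57 (median 0.13). These values lie close to those of the reported targets. Gpd2, the mitochondrial glycerol-3-phosphate dehydrogenase, was at 583 ± 45.3 and 466.5 ± 92.6 in WT and at 611 ± 96.2 and 488.5 ± 104 in KO (SD, n = 2, normoxia then hypoxia). Its difference over both genotypes was -0.33 ± 0.18, the same sign as that of Gpd1l, and it did not pass. Gpd1, the cytosolic enzyme that Gpd1l resembles, was at 3 to 10 and was not tested. All 7 tested E2f genes other than E2f3 had negative differences in WT hypoxia (median -0.16), against 52.1% of all tested genes. Both hypoxia values lay below both normoxia values in WT for E2f2, E2f7 and E2f8 only, and the others overlapped. For E2f1 the sign rested on WT hypoxia replicate 2 (208), since replicate 1 (279) lay above both WT normoxia values (272 and 258). For E2f5 the difference was -0.01 ± 0.25. In KO hypoxia 4 of the 7 were higher and 3 lower (median 0.12), against 48.8% of tested genes lower. Of those higher in KO, E2f6, E2f7 and E2f8 (named after their values were seen) were low in KO normoxia replicate 1, at 222, 136 and 69 against 358, 309 and 186 in KO normoxia replicate 2. The other relatives with the highest mean over all 8 libraries per member were E2f4 (335 to 528), Npat (458 to 1086), Igf1r (616 to 1573), Fgfr1 (707 to 973), Bmpr1a (2400 to 4023), Sco1 (276 to 343), Mga (580 to 1627) and Brca1 (493 to 1113).

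Genes of S phase that E2F factors drive were counted beside E2f3. Of 20 listed and tested, 0 passed in any comparison. At an unadjusted p under 0.05 with limma the count was 1 in WT (6.33% of all tested genes) and 0 in KO (3.2%). For KO against WT it was 1 in normoxia (3.0%) and 1 in hypoxia (7.52%). It was 0 for the difference of the responses (3.14%) and 0 over both genotypes (5.29%). Over both genotypes 8 were higher and 12 lower in hypoxia (median -0.05), against 49.6% of tested genes lower. The differences ran from -0.30 ± 0.20 for Cdt1, a licensing factor of replication, to 0.49 ± 0.26 for Ccne2, which encodes a cyclin E. For Ccne2 the high value was that of WT hypoxia replicate 2, at 3756 against 1088 to 1555 in the other 7 libraries.

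The genes whose pattern was most like that of Gpd1l were sought among 6055 genes at or above the median level, by Pearson's r of log2 values over the 8 libraries. They were Pgd (r = 0.960), a dehydrogenase of the pentose phosphate pathway, Shmt1 (0.957), the cytosolic serine hydroxymethyltransferase, and Exoc8 (0.949), an exocyst subunit. Pgd was at 1186 to 1368 in normoxia and 875 to 991 in hypoxia, again without overlap. For E2f3 they were Dip2b (0.992), Mapk1ip1l (0.988) and Fam120a (0.986), and for each of the 3 the libraries lowest in E2f3 were again the lowest pair. With 8 libraries and 6055 candidates, high values of r arise readily, and they are given as a description.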

How the data were processed

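RNA was isolated by miRNeasy and libraries were built with an NEB small library set for SOLiD, per the labels' protocols. Each value is treated as a score, since the authors deposited rounded normalised read counts, per the file's name. The sources used here do not give the aligner, counter, genome build, use of strand or normalisation method. Overlapping genes may share reads. Depth was estimated from the spacing of low values (1 read is worth 0.674 to 1.385). Below 1, several read counts round to the same value, so no count model was run. Of 17091 features, 12107 with values of at least 10 in at least 2 libraries were tested and 4984 were not. A 4-group model of log2(value + 1) was fitted with limma 3.58.1 (R 4.3.3, trend, median of 10.2 degrees of freedom), and p values of each of the 6 contrasts, two-sided, had the Benjamini-Hochberg adjustment across the tested genes. An exact test of 2 against 2 libraries cannot go below p = 0.333. The test was tried on simulated data. Members, lists and alternatives were chosen with earlier results of these data known. Named genes were the members, the hypoxia genes, fixed or extreme genes of each list, those passing the test, the highest relatives and the 3 most alike. The highest Eph ligand or receptor and Epha7, Camk2a and Zdhhc21 came from the lists or the motif count. Alternatives changed the pseudocount, filter, scaling, weights, libraries, replicate block and length trend.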

Additional observations from a re-analysis of the deposited data

How the results depend on the processing

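Of the 9 members 0 passed the test under the 19 alternatives run for 4 of the 6 comparisons, or under the 18 run for the difference of the responses and for hypoxia over both genotypes, which use all 8 libraries and so have no fit of the compared libraries only. The lowest adjusted p of Gpd1l with limma was 0.327 in WT and 0.138 over both genotypes, and its differences ran from -0.87 to -0.57 in WT and from -0.64 to -0.47 over both. With the replicate block the Gpd1l difference over both genotypes was -0.57 (adjusted p = 0.31), and the count of all genes called in KO was 11 in place of 7. Same-numbered libraries deviated together in WT (r = 0.57) and KO (0.23), while between genotypes r was -0.11 to 0.11. The labels do not tie the numbers to a shared culture. The block called no member, but it fits the same shift in both genotypes. It therefore cannot show what a pairing within each genotype would change, and such a pairing was not tested.

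Several differences turned sign, among them some of moderate size such as Casp8ap2 in KO (0.49). Without the 2 libraries that stood apart, the WT hypoxia difference was -0.21 for Casp8ap2 and 0.02 for Ptpn1. The KO hypoxia difference was then -0.11 for E2f3 and -0.03 for Casp8ap2, the difference of the responses -0.25 for Cox10, KO against WT in normoxia 0.06 for E2f3, and hypoxia over both genotypes 0.10 for Sdhd. Casp8ap2 was at -0.02 in WT with the length trend removed, and Fgfrl1 at -0.01 in KO after quantile normalisation. With single libraries left out, the WT difference ran from -0.21 to 0.29 for Casp8ap2, -0.24 to 0.02 for Ptpn1, -0.46 to 0.42 for Fgfrl1, -0.01 to 0.43 for Acvr1b and -0.33 to 0.04 for Mnt. In KO it ran from -0.11 to 0.58 for E2f3, -0.03 to 1.02 for Casp8ap2, -0.28 to 0.31 for Fgfrl1 and -0.17 to 0.06 for Rad52. KO against WT ran from -0.63 to 0.06 for E2f3 in normoxia, and in hypoxia from -0.12 to 0.38 for Casp8ap2, -0.55 to 0.43 for Cox10 and -0.04 to 1.55 for Stmn1. The difference of the responses ran from -0.08 to 0.98 for Casp8ap2, -0.70 to 0.10 for Ptpn1, -0.40 to 0.48 for Fgfrl1 and -0.24 to 0.74 for Cox10, and hypoxia over both genotypes from -0.27 to 0.06 for Sdhd and -0.61 to 0.01 for Foxn3.

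Counts of all genes called depended more on the settings. In WT 13 became 28 without a filter, 21 with array weights, 7 with only the compared libraries, 6 without the 2 libraries that stood apart and 1 to 20 with single libraries left out (1 without WT hypoxia replicate 2). In KO 7 became 2 with only the compared libraries, 11 with the length trend removed and 4 to 760 with single libraries left out, the 760 without KO normoxia replicate 2, which leaves the library that stood apart as the lone normoxia library. Over both genotypes 44 became 25 without the 2 libraries and 12 to 50 with single libraries left out. Without a filter, KO against WT called 19 genes in normoxia and 14 in hypoxia, and the difference of the responses 29, from 0 each. Of the hypoxia genes, 2 of 7 passed in WT and 0 in KO without a filter, 2 in KO with only the compared libraries, and at least 1 in WT and 4 in KO with single libraries left out. Among other reported targets, 1 call in WT became 0 without WT hypoxia replicate 2. The 1 call in KO became 0 without a filter or with only the compared libraries, and 1 to 10 with single libraries left out, and over both genotypes it was 1 to 2. Relatives went from 0 to 9 calls in KO and from 0 to 1 over both genotypes without KO normoxia replicate 2. The causes of these shifts were not tested.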
